A study of Rattus norvegicus with 16 samples.

Results

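Neuronal microtubule and growth-cone genes were followed in rat dentate gyrus, the granule-neuron region through which cortical input enters the hippocampus. The set was drawn up as 10 gene symbols, and every probe set that the platform annotation pairs with 1 of them was taken. 9 of the 10 genes, of 4736 genes named on the array, had a probe set: Gap43, Map2, Mapt, Map1a, Map1b, Stmn1, Kif3c, Nefl and Nefm. No probe set is listed under Stmn2, which is not analysed here. The 9 genes held 20 of the 8740 probe sets that are not controls. Kif3c was put in the set because its signal was low at 6 h, so its values are given as a description with no test. The other genes were chosen by name, with earlier results of these data known.

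The measurements are total RNA hybridised to RGU34A, an Affymetrix array of 1 colour, on 16 arrays. There were 3 naive arrays, 3 at 6 h, and 2 each at 0 h, 2 h, 3 h, 12 h and at 24 h. Every label, those of the naive arrays included, describes the rats as trained in passive avoidance, in which rats learn to avoid punishment by not acting. The naive arrays are taken here as untrained and the other 13 as trained. The labels give no strain, sex, age or pooling, do not say what the hours count from, and do not say whether replicates are separate animals. The p-values therefore cover the spread between these arrays alone, and that spread may be technical.

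Microtubules are the tubulin polymers along which neurons carry cargo and on which dendrites and axons are built. Map2 (dendrites), tau, encoded by Mapt (axons), Map1a and Map1b bind and stabilise them, while stathmin, encoded by Stmn1, binds free tubulin and promotes their disassembly. Kif3c is a motor subunit of the kinesin-2 family, Nefl and Nefm are the light and medium neurofilament proteins that fill large axons, and Gap43 is a membrane-attached protein of growth cones and presynaptic endings. In the dentate gyrus such genes are studied because granule neurons are added in adult life and remodel their dendrites and mossy-fibre axons.

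Values are intensities scaled so that every array has the same trimmed mean, and they have no absolute unit. Values at or under 5.05, the 20th percentile of all scaled values, are called at the floor and have no order among themselves. Testing was limited to probe sets over 16.9, the 40th percentile, on 2 or more arrays. 16 of the 20 member probe sets passed, and 14 of them, all but the pair for Kif3c, were tested. Differences are log2 differences from limma, with p-values adjusted over all 6220 probe sets that passed.

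The arrays differed in 3 ways that run alongside the groups. The ratio between the 3' and 5' control probe sets of beta-actin, a measure of RNA length, was 1.51 to 2.80 on trained arrays and 1.49 to 1.70 on naive arrays. By it 12 of the 13 trained arrays lay above every naive one. The same ratio for Gapdh split them less: it was 1.12 to 1.28 on naive arrays. Both 24 h arrays (1.15 and 1.15) lay within that range. Those at 0 h (1.54 and 1.69) and 12 h (1.70 and 1.60) lay above it, and 2 h, 3 h and 6 h held arrays of either kind. Ttr, a choroid plexus gene, was 6.14 to 11.96 on the log2 scale on trained arrays and 10.80 to 11.94 on naive arrays. The summed level of 9 markers of choroid plexus, ependyma and meninges was 370 to 396 at 24 h and 2362 to 5934 in naive arrays, with 7 of the 9 lower at an unadjusted p under 0.05. At 24 h all 6 oligodendrocyte markers with a probe set (Mbp, Mobp, Mal, Cnp, Mag and Mog) were lower at an unadjusted p under 0.05, with a median log2 difference of -0.89 and a smallest limma adjusted p of 0.083. Their summed level was 2614 to 2874 at 24 h and 4169.8 to 5691 in naive arrays. Of 9 marker genes of dentate granule neurons, 6 had probe sets and all 6 averaged above 16.9, among them Calb1 (383) and Pdyn (353). The summed level of these 6 was 972 to 1344 on trained arrays and 1001 to 1297 on naive arrays.

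No member probe set passed limma's test at an adjusted p of 0.05 in any comparison with naive. The count was 0 of 14 at 0 h, 3 h, 6 h, 12 h and 24 h and in all trained groups together, where 0% of the 6220 probe sets passed, and 0 of 14 at 2 h, where 0.0161% passed. The smallest adjusted p of a member was 0.296, at 12 h. The F test over the 7 groups also called 0 of 14, as did that over the 6 trained times, with 0% called over all probe sets in both; at an unadjusted p under 0.05 each took 3 of 14, the Map2 probe sets X17682_s_at, X53455cds_s_at and rc_AI228850_s_at, where 10.3% and 10.8% of all probe sets passed. The smallest adjusted p of a member was 0.312 for the first and 0.333 for the second. At an unadjusted p under 0.05 the members numbered 0 at 0 h and 0 at 2 h, against 5% and 7.67% of all probe sets. They numbered 3 of 14 (21.4%) at 3 h, 6 h and 12 h, against 4.31%, 9.41% and 10.1% of all probe sets, 2 of 14 (14.3%) at 24 h, against 4.44%, and 3 of 14 in all trained groups together, against 5.35%. All of these were lower than naive, a direction that 3.54% of all probe sets took at 3 h, 6.29% at 6 h, 5.61% at 12 h, 3.47% at 24 h and 3.7% in the trained groups together, and all but 1 were probe sets of the single gene Map2, so they are not independent of each other. The median log2 difference of the 14 was 0.04 at 0 h, 0.14 at 2 h, -0.16 at 3 h, -0.14 at 6 h, 0.04 at 12 h and -0.21 at 24 h, where over all probe sets tested it was -0.02, 0.03, -0.07, -0.03, 0.06 and -0.0044. At 2 h 11 of the 14 averaged above naive, and at 24 h 12 of the 14 averaged below it. The 14 include 4 probe sets of Map2, 3 of Mapt and 2 of Nefl, and the same counts over all probe sets were not computed.

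**Figure D1:**
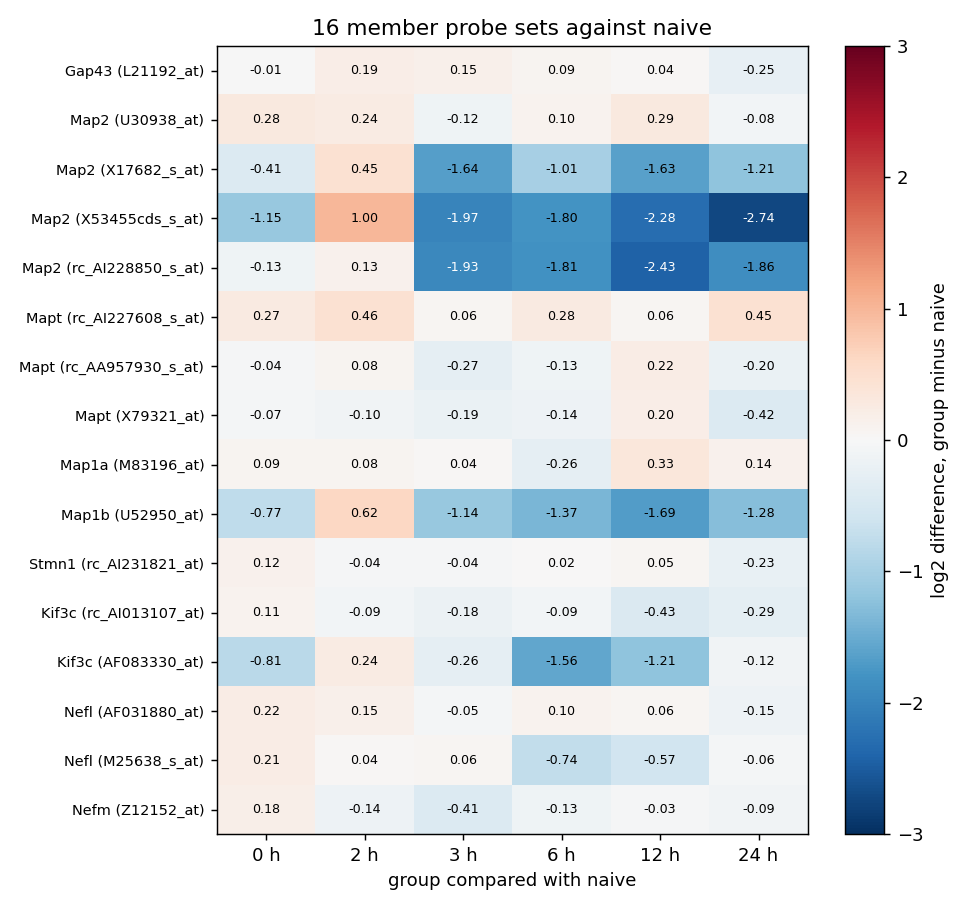
Log2 difference of each time group from naive (columns) for the 16 member probe sets that passed the filter (rows), colours running from blue (lower) to red (higher); the number in each cell is the difference. 3 Map2 probe sets and 1 for Map1b average lower at 0 h and from 3 h on and higher at 2 h, while the rest lie mostly within 0.5 of naive. Both 12 h arrays and 1 naive array of Map1b were at the floor, so that its 12 h cell depends on the floor. Kif3c is shown without a test.

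Gap43, the growth-cone protein, varied about as much within groups as between them. Its scaled intensities were 531, 421 and 709 in naive arrays, 471 and 611 at 0 h, 614 and 619.7 at 2 h, 518 and 695 at 3 h, 524, 667 and 551 at 6 h, 466 and 661 at 12 h, and 389.7 and 529 at 24 h. Every group other than 24 h lay wholly within the naive range, and at 24 h replicate 1 lay under it. The 2 h mean was the highest and the 24 h mean the lowest, 0.44 apart on the log2 scale, where the pooled SD within groups was 0.29. At 24 h Gap43 was lower by a log2 difference of -0.25 (SE 0.25, 95% interval -0.79 to 0.28), and at 6 h the difference was 0.09 (interval -0.38 to 0.57). The F test over the 7 groups gave an adjusted p of 0.887. In bulk tissue such as this, fewer cells of a type and less RNA per cell cannot be told apart.

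Stmn1, the tubulin-binding protein stathmin, had the narrowest range of the tested probe sets, 1.52-fold from the lowest to the highest array. It had scaled intensities of 492, 515 and 722 in naive arrays, 653 and 582 at 0 h, 500.2 and 608 at 2 h, 565 and 542 at 3 h, 642, 524 and 562 at 6 h, 562 and 612 at 12 h, and 474 and 495 at 24 h. All trained arrays except 24 h replicate 1 lay within the naive range. The difference from naive was -0.23 at 24 h (SE 0.20, 95% interval -0.65 to 0.20) and between -0.04 and 0.12 at the other times.

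Map1a, a dendritic microtubule-binding protein, was read by 1 tested probe set. It had 600.5, 681 and 969 in naive arrays, 813 and 751 at 0 h, 626 and 965 at 2 h, 751 and 764 at 3 h, 1068, 449 and 478 at 6 h, 1004 and 847 at 12 h, and 739.7 and 886 at 24 h. The 6 h arrays held both the highest and the lowest value of all 16. The log2 difference was -0.26 at 6 h (SE 0.28) and 0.33 at 12 h (SE 0.32), and the F test over the 7 groups gave an adjusted p of 0.855. A second Map1a probe set never exceeded 16.9 and was not tested.

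The medium neurofilament Nefm was lowest at 3 h. Its intensities were 559, 463 and 597 in naive arrays, 519 and 712 at 0 h, 438 and 538 at 2 h, 411 and 397 at 3 h, 460.4, 524 and 491 at 6 h, 451 and 609 at 12 h, and 527 and 479 at 24 h. Both 3 h arrays lay below every other array. The difference from naive at 3 h was -0.41 (SE 0.21, 95% interval -0.85 to 0.03), with an unadjusted limma p of 0.0673 and an adjusted p of 0.998.

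Mapt, which encodes tau, was read by 3 probe sets, of which rc_AI227608_s_at did not follow the other 2 (r of -0.06 and -0.22 over the 16 arrays, as a description), while those 2 had r of 0.56 with each other. By rc_AI227608_s_at it had 1319, 1215 and 627 in naive arrays, 1331 and 1101 at 0 h, 1371 and 1391 at 2 h, 1334 and 815 at 3 h, 1289, 1309.7 and 1057 at 6 h, 1278 and 852 at 12 h, and 1340.0 and 1407 at 24 h. Naive replicate 3 was the lowest of the 16, and both arrays at 2 h and at 24 h lay above every naive array. The differences were 0.46 at 2 h (SE 0.30) and 0.45 at 24 h (SE 0.30). By rc_AA957930_s_at the 16 arrays ran from 457 to 789, with both 3 h arrays (514 and 548) below the naive ones (566 to 715). By X79321_at they ran from 254 to 631, and the lowest and highest arrays were both at 6 h. The 24 h difference had opposite signs by the first probe set (0.45) and the other 2 (-0.20 and -0.42). None of the 3 had an adjusted p under 0.725 in a comparison with naive or in the F test over the 7 groups.

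**Figure D2:**
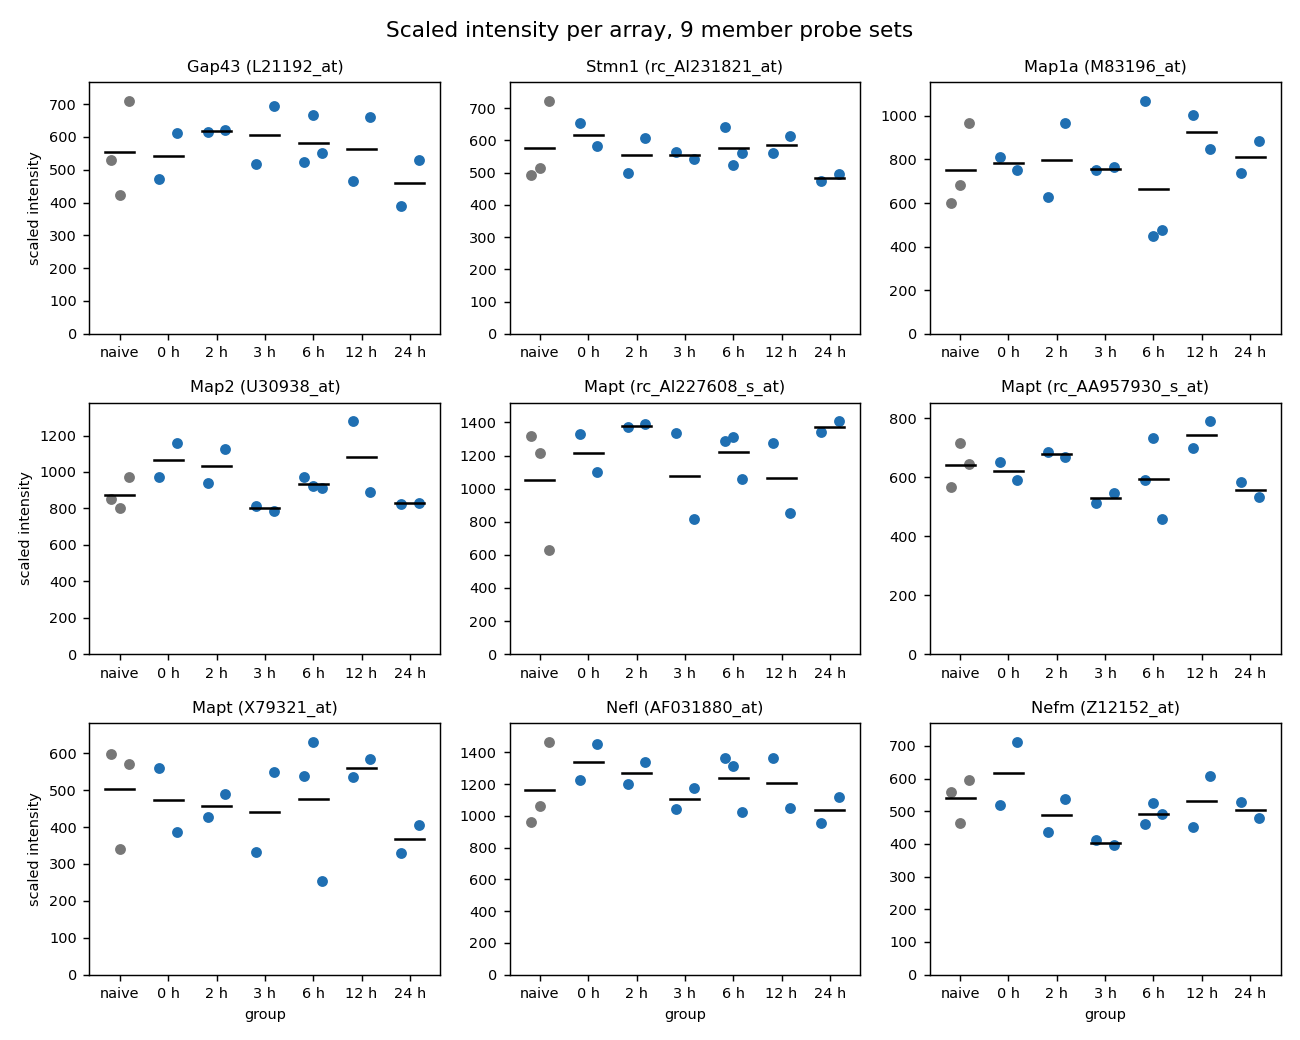
Scaled intensity (linear axes from 0, no absolute unit) of 9 member probe sets in each array, grey points for naive and blue for the time groups, with a black bar at each group's mean. The naive points overlap most time groups in all 9 panels, and Nefm at 3 h (411 and 397) lies below its naive range.

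Map2, the dendritic microtubule-associated protein, was read by 5 probe sets, of which 4 were tested. By U30938_at it stayed near naive: 850.0, 802 and 974 in naive arrays, 973 and 1158 at 0 h, 939.6 and 1125 at 2 h, 816 and 787 at 3 h, 973, 921 and 912 at 6 h, 1278 and 889.7 at 12 h, and 826 and 829.6 at 24 h. Its differences from naive ran from -0.12 at 3 h (SE 0.20) to 0.29 at 12 h (SE 0.20). The highest array, 12 h replicate 1, and the lowest, 3 h replicate 2, were 1.62-fold apart.

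The other 3 tested Map2 probe sets averaged lower than naive at 0 h and from 3 h on, in differences that did not pass the adjusted test. The 0 h differences were -0.13 for rc_AI228850_s_at, -1.15 for X53455cds_s_at and -0.41 for X17682_s_at. At 2 h the 3 averaged above naive, by 0.13, 1.00 and 0.45. By rc_AI228850_s_at the intensities were 41.6, 32.3 and 42 in naive arrays, 53.1 and 23.1 at 0 h, 45.3 and 39.1 at 2 h, 20 and at the floor at 3 h, 7.08, 7.08 and 25.9 at 6 h, 7.58 and 6.65 at 12 h, and 22.2 and at the floor at 24 h. All 9 arrays from 3 h on lay below every naive array, while both 2 h arrays lay within or above the naive range. By X53455cds_s_at they were 52.9, 42.2 and 37.8 in naive arrays, 52 and 7.55 at 0 h, 65.6 and 117 at 2 h, 24.7 and at the floor at 3 h, 14.5, at the floor and 27.3 at 6 h, 16.1 and at the floor at 12 h, and 8.58 and at the floor at 24 h. Here too the arrays from 3 h on lay below naive, and both 2 h arrays lay above it. By X17682_s_at they were 54.7, 38.4 and 53.3 in naive arrays, 46.8 and 28.2 at 0 h, 35.7 and 122 at 2 h, 28.9 and 8.26 at 3 h, 15.1, 20 and 45.7 at 6 h, 19.9 and 12.2 at 12 h, and 30.9 and 14.1 at 24 h. By this probe set 1 of the 3 arrays at 6 h lay within the naive range.

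Of these, rc_AI228850_s_at at 12 h had the smallest adjusted p. Its log2 mean was 2.83 ± 0.13 (SD, n = 2) at 12 h and 5.26 ± 0.22 in naive arrays (n = 3), a log2 difference of -2.43 (SE 0.69) and 5.40-fold lower, with a limma adjusted p of 0.296. Both 12 h arrays lay just over the floor and under 16.9. A pseudocount of 16 in place of the floor gave -1.24 for the same difference, and the covariates described further on gave -1.58 and -1.59. At 24 h X53455cds_s_at had the lowest value, -2.74 (SE 0.83, limma adjusted p = 0.598). The remaining differences with an unadjusted p under 0.05 at these hours ran from -2.28 to -1.63, with limma adjusted p of 0.401 to 0.998. Over the trained groups together the 3 probe sets were at -1.34 (SE 0.49), -1.49 (SE 0.58) and -0.91 (SE 0.43), with limma adjusted p of 0.922, 0.922 and 0.931. At 3 h, 12 h and 24 h each of the 3 lay wholly below naive, where 12%, 11.8% and 11.8% of all probe sets did. The 3 vary together, so they are not separate observations. Because these groups hold 2 or 3 arrays, single arrays carry much of the size: without 3 h replicate 2 the 3 h differences were -0.94, -0.83 and -0.74, and without 24 h replicate 2 the rc_AI228850_s_at difference was -0.79. Leaving out 6 h replicate 2 put X53455cds_s_at at -1.14 at 6 h.

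The 3 probe sets varied together across the 16 arrays, with Pearson r of 0.84 to 0.89 between them, as a description of arrays that share a platform and a scaling. Against U30938_at, for the same gene, r was 0.10 to 0.27.

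RNA length and the amount of other tissue also differed between groups, and most of the low Map2 differences were smaller in size with either in the fit. The beta-actin ratio was 1.92 to 2.30 at 6 h, 2.40 and 2.80 at 12 h, 1.85 and 1.77 at 24 h and 1.49 to 1.70 in naive arrays. It was 2.62 and 2.30 at 0 h and 1.51 and 2.15 at 3 h. At 2 h, where the 3 probe sets averaged above naive, it was 1.96 and 2.69. With that ratio as a covariate rc_AI228850_s_at was at -1.75 at 3 h, -1.37 at 6 h, -1.58 at 12 h, -1.66 at 24 h and -0.83 in all trained groups. X53455cds_s_at was then at -1.74 at 3 h, -1.23 at 6 h, -1.19 at 12 h, -2.48 at 24 h and -0.84 in all trained groups, and X17682_s_at at -1.65 at 3 h, -1.68 at 12 h and -0.94 in all trained groups. X17682_s_at hardly moved, and X53455cds_s_at at 12 h moved most, from its -2.28 without the covariate.

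The log2 level of Ttr was 10.32 to 11.96 at 6 h, at most 7.81 at 12 h, 6.19 and 6.20 at 24 h and 10.80 to 11.94 in naive arrays. It was 11.26 and 7.04 at 0 h and 8.11 and 6.565 at 3 h. At 2 h, where the 3 Map2 probe sets averaged above naive, it was 6.14 and 9.03. With Ttr as a covariate X53455cds_s_at was at 0.24 at 3 h, -1.63 at 6 h, -0.11 at 12 h and 0.10 at 24 h, and rc_AI228850_s_at at -1.07 at 3 h, -1.75 at 6 h, -1.59 at 12 h and -0.75 at 24 h. X17682_s_at was at -0.48 at 3 h and -0.49 at 12 h. The 6 h differences, in arrays with Ttr near the naive level, moved little, and those at the other times were smaller or of opposite sign. Such a fit shifts each difference in proportion to the gap in Ttr between that group and naive. This pattern over the hours therefore follows from the Ttr levels and cannot show what tissue contributed at each time. The part of RNA length, choroid plexus tissue or oligodendrocytes in the low Map2 values was not tested beyond these fits.

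**Figure D3:**
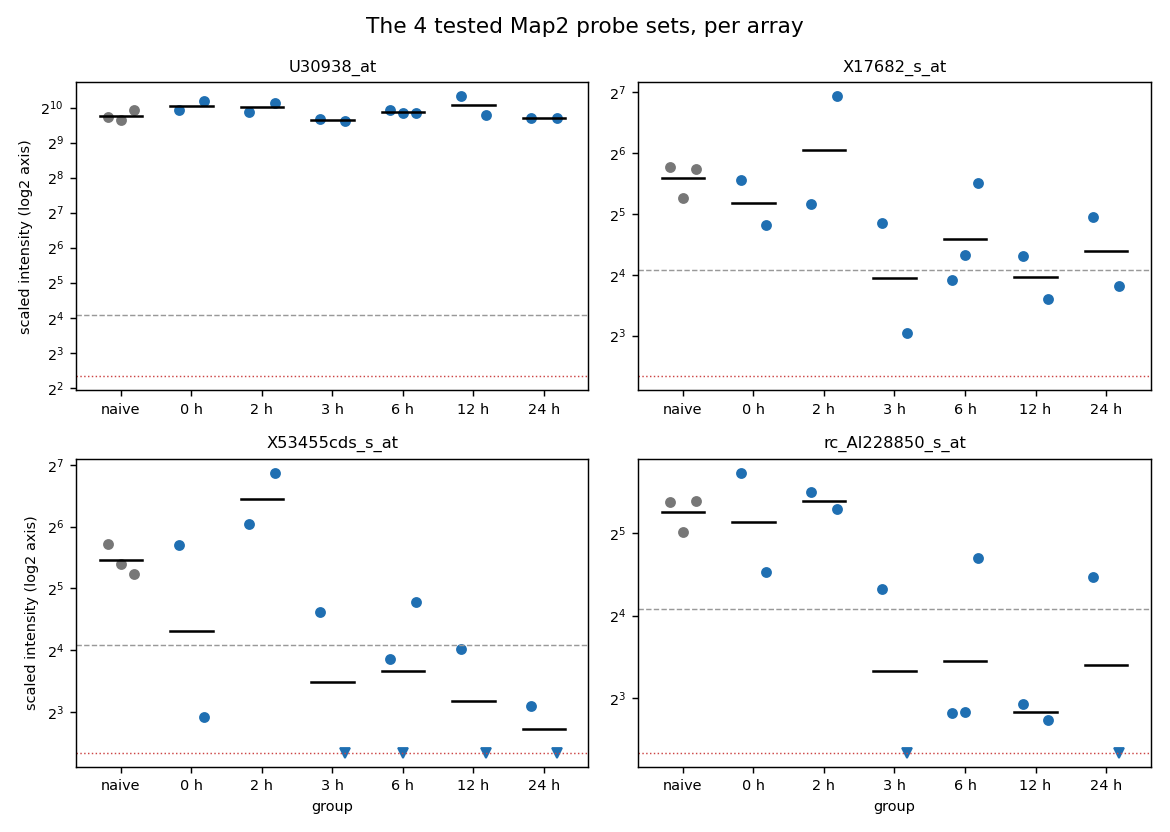
Scaled intensity (log2 axes) of the 4 tested Map2 probe sets in each array, grey for naive and blue for the time groups, with a bar at the mean of log2 values; triangles are arrays at the floor (dotted line at 5.05), and the dashed line marks 16.9. U30938_at stays between 787 and 1278, while the other 3 probe sets average lower than naive at 0 h and from 3 h on and higher at 2 h.

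Map1b, which is most abundant in growing axons, was close to the floor by all 3 of its probe sets. Only U52950_at was tested, and it exceeded 16.9 on 4 of 16 arrays. It had 54.8, 15.5 and at the floor in naive arrays, 18 and at the floor at 0 h, 20.9 and 29.8 at 2 h, 10.7 and at the floor at 3 h, 1 array of 3 above the floor (9.79) at 6 h, both at the floor at 12 h, and 8.4 and 5.32 at 24 h. The naive arrays alone spanned this whole range, so no group stood apart from naive. Its F test over the 7 groups gave an adjusted p of 0.580. Over the 16 arrays its log2 values had r of 0.72 to 0.80 with the 3 Map2 probe sets described above. It was at the floor on 7 arrays, X53455cds_s_at on 4 and rc_AI228850_s_at on 2, so tied floor values enter these r.

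Kif3c, the kinesin-2 motor subunit, was picked for a low value at 6 h by AF083330_at, and those values are given here without a test. It had 104, 88.5 and 83.4 in naive arrays, 65.1 and 41.9 at 0 h, 102 and 115 at 2 h, 103 and 57.1 at 3 h, 44.5, 22.2 and 30.5 at 6 h, 49.9 and 31.1 at 12 h, and 86.3 and 82.5 at 24 h. In order of group means, 2 h was highest, then naive, 24 h, 3 h, 0 h, 12 h and 6 h. The 6 h and 12 h groups overlapped each other, and all 5 of their arrays lay below every naive array. Both 0 h arrays (65.1 and 41.9) and 1 at 3 h (57.1) also lay below every naive array, and the 0 h group overlapped those at 6 h and 12 h. Of the 24 h arrays 1 lay within the naive range and 1 just under it. The 6 h difference was -1.56 on the log2 scale. By the second probe set, rc_AI013107_at, the intensities were 270.1, 385 and 315 at 6 h and 286, 334 and 409 in naive arrays, a difference of -0.09, and the lowest of the 16 arrays was 12 h replicate 2 at 216. Across the 16 arrays the 2 probe sets for Kif3c had r of -0.02.

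The light neurofilament Nefl showed the same kind of split between probe sets. By M25638_s_at it had 221, 200.3 and 222 in naive arrays, 254 and 242 at 0 h, 230.1 and 212 at 2 h, 232 and 213 at 3 h, 195, 59.3 and 182 at 6 h, 164 and 127 at 12 h, and 209 and 202 at 24 h. All 5 arrays at 6 h and 12 h lay below every naive array, and both at 0 h lay above. The mean scaled intensity was 145 ± 74.9 (SD, n = 3) at 6 h and 215 ± 12.4 in naive arrays (n = 3), a log2 difference of -0.74 (SE 0.32, limma adjusted p = 0.491). It rested on 6 h replicate 2, without which it was -0.19, and with the beta-actin ratio as a covariate it was -0.40. Of the 16 arrays, 6 h replicate 2 had the lowest median correlation with the others (r = 0.916). By AF031880_at Nefl had 1366, 1316 and 1027 at 6 h, 1364 and 1049.8 at 12 h and 963, 1064 and 1467 in naive arrays, with differences of 0.10 (SE 0.20) and 0.06 (SE 0.22). Across the 16 arrays M25638_s_at had r of 0.70 with AF083330_at for Kif3c and -0.08 with the other Nefl probe set. The first r includes the 6 h values for which Kif3c was picked, and 6 h replicate 2 was the lowest array of both (59.3 and 22.2). It is given as a description and is no separate support for a low 6 h value.

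**Figure D4:**
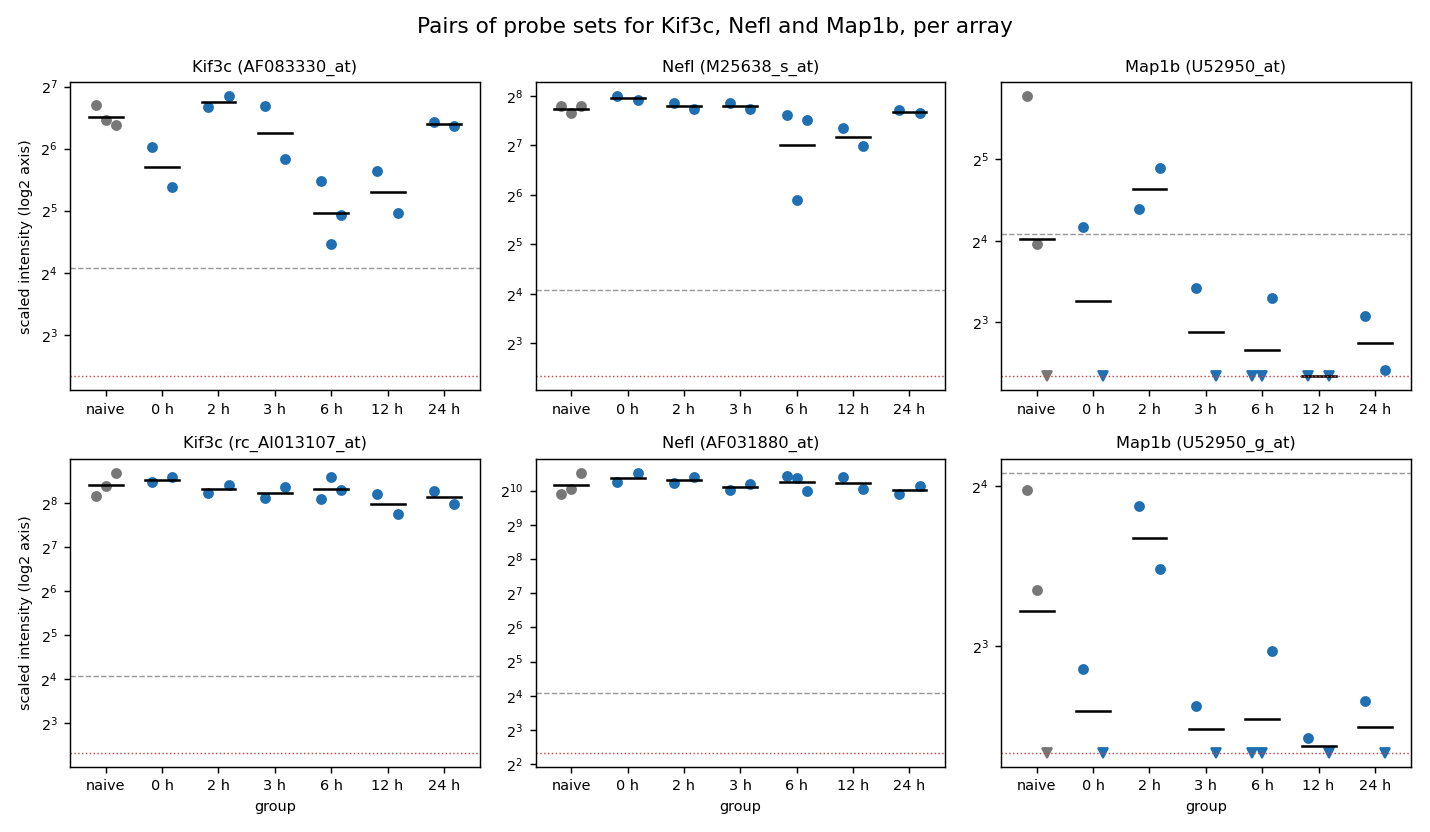
Scaled intensity (log2 axes) in each array of 2 probe sets each for Kif3c, Nefl and Map1b, grey for naive and blue for the time groups, with a bar at the mean of log2 values; triangles are arrays at the floor (dotted line at 5.05), and the dashed line marks 16.9. In the upper row Kif3c (22.2 to 49.9) and Nefl (59.3 to 195) are low at 6 h and 12 h, and Kif3c is also below naive at 0 h (41.9 and 65.1). In the lower row their other probe sets overlap naive at 6 h and 12 h. Naive arrays of Map1b in the upper row run from 54.8 down to the floor.

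Counts of groups that do not overlap naive show how often such separations arise on these arrays. At 3 h, 5 of 14 member probe sets lay wholly below naive (the 3 of Map2, Nefm and 1 of Mapt), where 12% of all probe sets did. At 6 h 3 of 14 did, against 6.56%, at 12 h 4 of 14, against 11.8%, and at 24 h 3 of 14, against 11.8%. At 0 h and at 2 h 0 of 14 did, against 11.7% at each. Wholly above naive were 1 of 14 at 0 h (10% of all), 2 at 2 h (15.3%), 1 at 24 h (8.86%) and 0 at 3 h (7.3%), 6 h (4.34%) and 12 h (15.9%). Most members in these counts are probe sets of the same gene.

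Genes of the same structures outside the set were taken from 6 lists (tubulins, other microtubule regulators, kinesins and dyneins, intermediate filaments, growth cone and neurite growth, actin cytoskeleton), with the probe set of highest mean for each gene. Of 155 listed genes 94 had a probe set and 78 were tested, and 0 were called in any comparison by limma. At an unadjusted p under 0.05, 3 were higher and 8 lower at 6 h (14.1% of 78, against 9.41% of all probe sets), and 3 higher and 3 lower at 12 h (7.69%, against 10.1%). At 3 h 5 were lower (6.41%, against 4.31%), and at the other times 1 to 3 passed. The median difference of a list ranged from -0.16 to 0.18 over the 6 lists and 6 times.

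The 5 tubulins, which form the microtubule itself, included none with an unadjusted p under 0.05, and their median was -0.01 at 6 h. Of 8 kinesin and dynein genes, Dync1h1, the heavy chain of the dynein motor, had 303, 193 and 295 at 6 h and 427, 352 and 400.4 in naive arrays (log2 difference -0.60, SE 0.22, limma adjusted p = 0.428). Cntn1, an axonal adhesion molecule, had 44.2 and 50 at 12 h and 98.6, 170.4 and 200.1 in naive arrays (-1.67, SE 0.47, limma adjusted p = 0.296). At 6 h it had 55, 37.4 and 99.2, a difference of -1.35 (SE 0.42). Gsk3b, a kinase that phosphorylates tau and Map1b, was in the opposite direction, with 56.8, 95.9 and 48.4 at 6 h and 28.6, 37.6 and 37.4 in naive arrays (0.90, SE 0.28, limma adjusted p = 0.388). Stmn4, a stathmin relative, had 115 and 88.7 at 3 h and 160.2, 142 and 197 in naive arrays (-0.70, SE 0.23, limma adjusted p = 0.998). In each of Dync1h1, Gsk3b and Stmn4 those arrays did not overlap naive, while for Cntn1 the 12 h arrays did not and 1 of the 3 at 6 h did. The genes were named for the smallest p in their list at that time, so such separation largely follows from the choice. Of all probe sets 12% lay wholly below naive at 3 h, 6.56% at 6 h and 11.8% at 12 h. Wholly above it at 6 h lay 4.34%.

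The probe sets most alike to the members over the 16 arrays were found among 5109 probe sets of other named genes, as a description with no test. For Kif3c by AF083330_at they were Ptprs (r = 0.90), Fgfr1 (0.89) and Smarca4 (0.88). These r include the low 6 h values for which that probe set was picked. Ptprs is also in the list of growth cone and neurite growth. For Nefl by AF031880_at they were Atp2a2 (0.89), Ywhaz (0.86) and Ldhb (0.83), for Map2 by U30938_at Abcd3 (0.88), COX3 (0.85) and Cpe (0.84), and for Gap43 Psmd1 (0.81), Acat2 (0.79) and Ldhb (0.79). Between members, each by its tested probe set of highest mean, the highest r was 0.73 (Nefl with Map2) and the lowest -0.58 (Mapt with Gap43). All of these values come from arrays that share a platform and a scaling.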

How the data were processed

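The deposited table holds 1 linear intensity per probe set and array (8799 probe sets, 59 of them controls); by which software and scaling the authors made these intensities is not given in the sources used here. Array trimmed means ranged from 33.3 to 170 before scaling, a 5.11-fold range. Intensities were multiplied by a factor per array so that every 2% trimmed mean was 105, floored at 5.05 and put on the log2 scale. Gene names come from the platform annotation, updated by gene ID (6994 rows matched); 7006 probe sets carried 1 symbol, 308 several or none, and 1426 were not listed.

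All 7 groups were fitted together with limma 3.58.1 in R 4.3.3 (lmFit, eBayes with a variance trend), with Benjamini-Hochberg adjustment over 6220 probe sets and a threshold of 0.05. The comparisons with naive share the naive arrays. The number of arrays limits the precision. Members other than Kif3c with an unadjusted p under 0.05, at most 10 per comparison, got full statistics; up to 3 genes per related list and comparison could be named by the smallest p. The members and lists were chosen with earlier results of these data known. Alternatives changed the normalization, floor, filter, variance model, weights, covariates, block, probe sets and arrays. The alternative without the 2 arrays of lowest median correlation (6 h replicate 2 and 12 h replicate 1) was chosen after seeing the data. Whether replicate numbers pair the arrays was not settled. Deviations of same-numbered arrays correlated between -0.20 and 0.19, over 0.1 in 12 of 43 pairs. In groups of 2 arrays the deviations mirror each other, so some of these values repeat. No differently numbered pairs were compared with them.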

Additional observations from a re-analysis of the deposited data

How the results depend on the processing

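The counts of called member probe sets and of called genes of the related lists stayed at 0 in all 483 recomputations over 31 alternative settings (limma, adjusted p of 0.05). Of 398 recomputed differences of named Map2 and Nefl probe sets 0 passed, and 4 reversed, all with the Ttr level as a covariate: X53455cds_s_at at 3 h (0.24), at 24 h (0.10) and in all trained groups (0.29), and X17682_s_at in all trained groups (0.027); the cause was not tested. With the replicate block rc_AI228850_s_at was at -2.09 at 12 h (adjusted p = 0.365), and the block changed no call. Nefl by M25638_s_at at 6 h ranged from -1.04 to -0.19 when single arrays were left out, and Kif3c by AF083330_at from -1.81 to -1.31. Median scaling moved the median of all probe sets at 3 h to 0.11, where it was -0.07, and Nefl at 6 h to -0.66. With 1 probe set per gene the 3 tested Map2 probe sets other than U30938_at were not in the fit. Of 1296 list medians, 86 moved by over 1 SD. Many of the low Map2 and Map1b values lie near or at the floor, and values at it have no order among themselves.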

Other observations

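Single arrays held many of the extreme values of the members. Naive replicate 3 had the highest value of the 16 arrays in 4 of the 16 probe sets that passed the filter, Kif3c included (Gap43, Stmn1, Nefl by AF031880_at and Kif3c by rc_AI013107_at) and the lowest in Mapt by rc_AI227608_s_at. Of the 13 of these that were never at the floor, 3 h replicate 2, 6 h replicate 2 and 24 h replicate 1 each had the lowest value in 3. 2 h replicate 2 had the highest value in 3, among them both Map2 probe sets X17682_s_at and X53455cds_s_at.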
